A study of Sus scrofa with 6 samples.

Results

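Iron handling was described through 10 genes taken by symbol: the transferrin receptor TFRC, its ligand TF, the ferritin subunits FTH1 and FTL, the iron regulatory proteins IREB2 and ACO1, the iron transporter SLC11A2, the exporter SLC40A1, the endosomal reductase STEAP3 and myoglobin (MB). Of these 10 genes, 8 had a row under their own symbol among the 25878 genes listed in the deposited table. MB was not analysed here. A row without a symbol lay at the RefSeq position of FTH1 and is given below as FTH1 by position, apart from the 8.

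The RNA came from the longissimus dorsi, a back muscle, of 6 female Nanyang black pigs, 3 of a high fat deposition group (HF01, HF02 and HF03) and 3 of a low fat deposition group (LF01, LF02 and LF03). According to the labels all 6 were 180 days old, while the phenotype table of the study gives another age. The methods describe siblings kept in 1 pen, sorted into groups by backfat and muscle fat, with no treatment, so the groups are extremes of a trait in 1 family setting. Each pig gave 1 library, so differences between pigs and differences between libraries cannot be told apart in the spread.

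Muscle takes up iron as transferrin that binds its receptor at the cell surface and is carried into the endosome, where the iron is reduced, released and moved to the cytosol. It is then used for myoglobin, haem and iron-sulphur proteins, stored inside a shell of ferritin heavy and light chains, or exported through ferroportin. In mammals the iron regulatory proteins bind hairpins in several of these messages when iron is scarce, which protects the receptor message from decay and blocks translation of the ferritin messages.

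The libraries held between 14569 and 15336 genes with an FPKM above 0, where FPKM is fragments per kilobase of transcript, scaled to the mapped fragments of the library. Values of pigs given in a row without names are in the order 01, 02, 03. Fibre genes were checked against the muscle label: CKM (1622 to 2815 FPKM) and MYLPF (11054 to 29740 FPKM) were high in every pig. ACTA1, skeletal actin, was listed at 0 in HF01 and HF03 and COX1, a mitochondrial gene, at 0 in LF02, while elsewhere the lowest values were 10272 FPKM for ACTA1 and 41411 FPKM for COX1. The deposited FPKM summed to 598096 in LF02 and to between 734973 and 961903 in the other 5 pigs. The part of these listings in the values below was not tested. Every pig was left out in turn, LF02 with its lowest sum among them.

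By FPKM, FTH1 by position and FTL were the most abundant iron handling transcripts, followed by TFRC. The place of FTL is uncertain, because its FPKM and its read count did not match, as given below. Means over the 6 pigs were 1124 FPKM for FTH1, 400 FPKM for FTL and 37.1 FPKM for TFRC. SLC40A1 (15.3 FPKM), IREB2 (8.06 FPKM), ACO1 (5.39 FPKM), SLC11A2 (3.97 FPKM), STEAP3 (1.73 FPKM) and TF (0.430 FPKM) followed. The order FTH1, FTL, then the rest held in all 6 pigs. TFRC stood next after FTL in the 3 HF pigs and in LF02, below SLC40A1 in LF01, and below both SLC40A1 and IREB2 in LF03. IREB2 and ACO1 were neighbours whose order turned over in HF03.

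**Figure D1:**
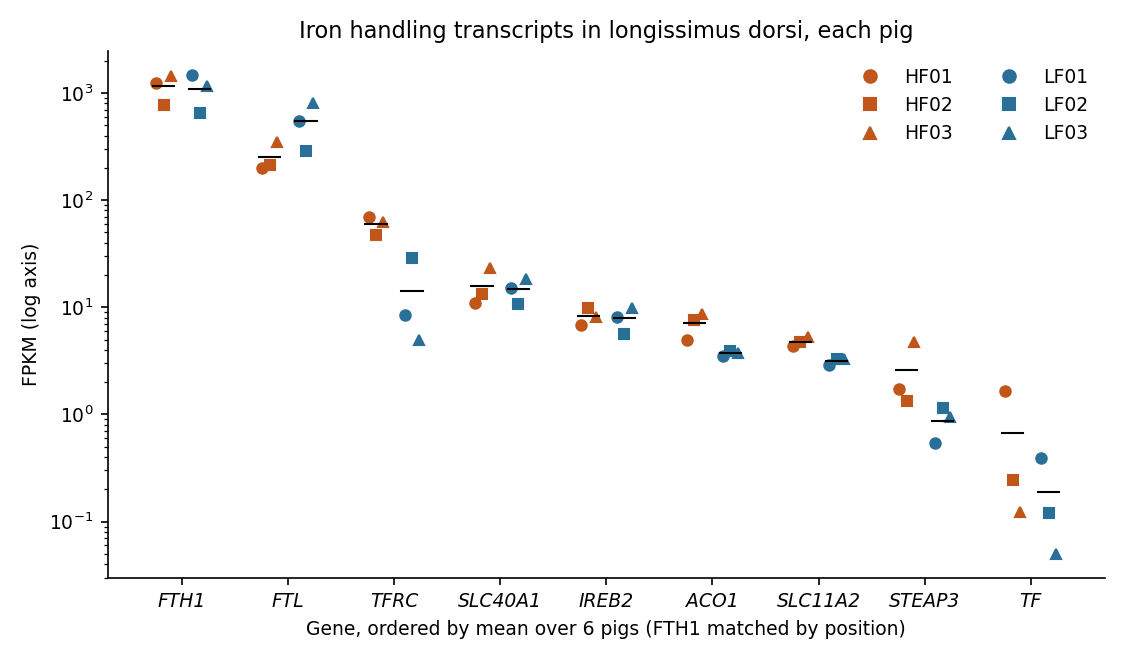
Level of each iron handling transcript in each pig, in FPKM on a log axis, with HF pigs in orange and LF pigs in blue, the symbol shape giving the pig number and the black line the group mean. TFRC separates the groups most widely, with HF between 47.6 and 70.3 FPKM and LF between 4.94 and 29.1 FPKM, while FTH1, SLC40A1 and IREB2 overlap.

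TFRC, the receptor that brings transferrin into the cell, had the widest gap between the groups. Its level was 70.3 FPKM in HF01, 47.6 FPKM in HF02 and 62.5 FPKM in HF03, against 8.42 FPKM in LF01, 29.1 FPKM in LF02 and 4.94 FPKM in LF03. No LF pig reached the HF range: the lowest HF pig was 1.63 times the highest LF pig, and LF02 lay nearer to the HF pigs than to the other LF pigs on the log scale. The mean was 60.1 FPKM ± 11.5 (SD, n = 3) in HF and 14.2 FPKM ± 13.1 (SD, n = 3) in LF, a 4.25-fold difference of means. Spread within the groups was unequal: the SD of log2(FPKM + 0.1) was 0.29 in HF and 1.30 in LF, and the highest LF pig was 5.89 times the lowest.

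The log2 fold change of TFRC, HF minus LF on the log2(FPKM + 0.1) scale, was 2.46 with an SE of 0.56 and a 95% interval from 1.18 to 3.74. The limma p, adjusted by the Benjamini-Hochberg method over all genes tested, was 0.0882 and missed the threshold of 0.05. Without LF02, the LF pig nearest to HF, the difference grew to 3.18 with an adjusted limma p of 0.0199, which passed it. The same omission raised the calls over all genes from 8 to 226. Without any other single pig the adjusted limma p of TFRC was 0.127 to 0.258. Over the alternative settings the adjusted p of TFRC ran from 0.0199 to 0.258. An exact two-sided permutation test of the 6 pigs gave p = 0.1, the smallest that 3 against 3 allows. Among all genes listed, those at 0 in the library included, TFRC ranked at percentile 96.6 or higher in each HF pig. It ranked at percentile 85.1 in LF01, 94.3 in LF02 and 79.1 in LF03. In bulk muscle such as this, fewer cells of a type and less RNA per cell cannot be told apart.

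The TFRC gene model (ENSSSCG00000011848) spans chromosome 13 from 133878636 to 134000847 in Sscrofa11.1, and the RefSeq model of the same build covers 133976765 to 133997554 within it. The longer model holds ZDHHC19, listed at 0 in all 6 pigs. The authors' mean normalised count for TFRC was 6098 over the 6 pigs, so the gene was deeply covered.

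STEAP3, which reduces the iron freed in the endosome, was low in every pig. Its level was 1.75 FPKM in HF01, 1.32 FPKM in HF02 and 4.72 FPKM in HF03, against 0.536 FPKM in LF01, 1.14 FPKM in LF02 and 0.938 FPKM in LF03. Its groups did not overlap, but HF02 and LF02 were close and HF03 stood well above the rest. The log2 fold change was 1.32 with an SE of 0.47 and an adjusted limma p of 0.140.

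SLC11A2, known as DMT1, carries the reduced iron out of the endosome. Its level was 4.34 FPKM in HF01, 4.70 FPKM in HF02 and 5.33 FPKM in HF03, against 2.89 FPKM in LF01, 3.31 FPKM in LF02 and 3.29 FPKM in LF03. Here too the groups did not overlap, and the spread within groups was the narrowest of the uptake genes. The difference of means was 1.52-fold, with a log2 fold change of 0.58, an SE of 0.18 and an adjusted limma p of 0.116. The gene lies on the unplaced scaffold AEMK02000258.1 of the assembly.

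TF, the iron carrier of plasma that is made mainly in liver, was near the floor of the data. Its level was 1.65 FPKM in HF01, 0.246 FPKM in HF02 and 0.123 FPKM in HF03, against 0.396 FPKM in LF01, 0.121 FPKM in LF02 and 0.050 FPKM in LF03. The groups overlapped, and the mean of 0.430 FPKM kept TF out of the test, which took genes of at least 0.5 FPKM. The untested difference of mean log2(FPKM + 0.1) was 1.01. ALB, a liver gene, was likewise highest in HF01 (15.8 FPKM) and next in LF01 (4.82 FPKM), and between 0.209 and 0.583 FPKM in the other pigs. Over the liver markers, 4 of 5 were listed, their summed level was 9.01 to 30.0 FPKM in HF and 5.98 to 11.5 FPKM in LF, and TTR and APOB were at 0 in some pigs. The part of other tissue in TF was not tested.

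FTL, the ferritin light chain that helps build the iron core, was the 1 measured member with a negative fold change. Its level was 198 FPKM in HF01, 211 FPKM in HF02 and 352 FPKM in HF03, against 545 FPKM in LF01, 287 FPKM in LF02 and 805 FPKM in LF03. HF03 lay above LF02, so the groups overlapped. The LF mean was 2.15 times the HF mean, and the log2 fold change was -1.03 with an SE of 0.39, a 95% interval from -1.94 to -0.13 and an adjusted limma p of 0.159. Over the alternatives the adjusted p of FTL ran from 0.0589, without LF02, to 0.375. From low to high FTL the pigs ran HF01, HF02, LF02, HF03, LF01, LF03, and from high to low TFRC they ran HF01, HF03, HF02, LF02, LF01, LF03, so the 2 orders differ only in the place of HF03.

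The FTL level needs care. The gene model covers 1633 bases of chromosome 6, from 54231121 to 54232753, and the model of GYS1, muscle glycogen synthase at up to 80.4 FPKM, overlaps 1425 of them. The authors' mean normalised count for FTL was 288, or 0.720 counts per FPKM, where the median gene tested had 134 counts per FPKM and 228 of 11136 genes, 2.05%, had fewer than FTL. The other members had 101 to 205 counts per FPKM, and FTH1 by position had 47.8. By that count, which is not per length, FTL (288) lay below TFRC (6098), SLC40A1 (1546), ACO1 (1106), IREB2 (1000), SLC11A2 (594) and STEAP3 (303), and above TF (47.8) alone. The paper counted reads with HTSeq in its intersection-strict mode and with a minimum alignment quality. The part of that counting in the low FTL count was not tested. Both ferritin genes also have processed copies in mammals, between which short reads can be shared, so their levels are uncertain.

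FTH1 by position (ENSSSCG00000014540, chromosome 2, 9535046 to 9538043, against 9535051 to 9537979 for FTH1 in RefSeq) encodes the heavy chain, which oxidises iron for storage. Its level was 1231 FPKM in HF01, 775 FPKM in HF02 and 1443 FPKM in HF03, against 1479 FPKM in LF01, 656 FPKM in LF02 and 1161 FPKM in LF03. The groups overlapped throughout, and both pigs numbered 02 were the lowest of their group. The log2 fold change was 0.10 with a 95% interval from -0.72 to 0.91 and an adjusted limma p of 0.895, and it turned negative without HF03 or without LF02.

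SLC40A1, ferroportin, is the exporter of iron from cells. Its level was 10.9 FPKM in HF01, 13.3 FPKM in HF02 and 23.4 FPKM in HF03, against 15.0 FPKM in LF01, 10.7 FPKM in LF02 and 18.5 FPKM in LF03. Neither group stood above the other. The log2 fold change was 0.06 with a 95% interval from -0.68 to 0.81 and an adjusted limma p of 0.926, and it turned negative without HF03 or without LF02.

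The iron regulatory proteins differed from each other in pattern. ACO1, or IRP1, which serves as a cytosolic aconitase while it holds an iron-sulphur cluster, was at 4.90 FPKM in HF01, 7.66 FPKM in HF02 and 8.64 FPKM in HF03. It was at 3.49 FPKM in LF01, 3.89 FPKM in LF02 and 3.78 FPKM in LF03. No overlap was seen, the LF pigs lay close together, and HF01 was the HF pig nearest to them. The log2 fold change was 0.87 with an SE of 0.24 and an adjusted limma p of 0.0992. The ACO1 model spans 67315 bases, and that of DDX58, a sensor of viral RNA at up to 3.48 FPKM, overlaps 32512 of them. The part of this overlap in the ACO1 level was not tested.

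IREB2, or IRP2, is removed by the proteasome when iron is plentiful, so its control is largely at the protein. Its level was 6.86 FPKM in HF01, 9.79 FPKM in HF02 and 8.07 FPKM in HF03, against 8.20 FPKM in LF01, 5.67 FPKM in LF02 and 9.77 FPKM in LF03. The groups overlapped, with a log2 fold change of 0.08, a 95% interval from -0.49 to 0.66 and an adjusted limma p of 0.866. The sign turned without HF02 or without LF02.

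**Figure D2:**
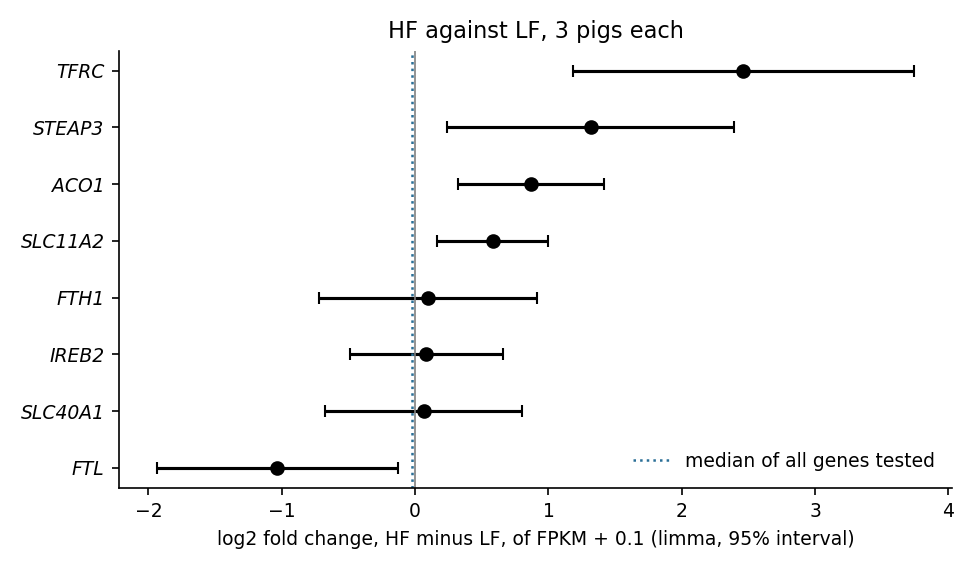
Log2 fold change of each tested iron gene, HF minus LF, with its 95% interval from limma, and the median of all genes tested as a dotted line. The intervals of TFRC, STEAP3, ACO1 and SLC11A2 lie above 0 and that of FTL below 0, before any adjustment for the number of genes tested.

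Of the 8 genes found by symbol, 7 passed the filter on low values and 0 were called at an adjusted p under 0.05. The same limma fit called 8 of 11136 genes, or 0.0718%, with 4 higher and 4 lower in HF. At an unadjusted p under 0.05, 4 of the 7 were higher in HF (TFRC, STEAP3, ACO1 and SLC11A2), where 11.0% of all genes tested were. At that level 1 of the 7, FTL, was lower in HF, where 13.8% of all genes tested were. The groups did not overlap, with HF higher, in the same 4 genes (12.8% of all genes tested), and in 0 with HF lower (17.1% of all genes tested). The median log2 fold change of the 7 was 0.58, beside -0.03 over all genes. At an adjusted p under 0.10, TFRC and ACO1 were called along with 704 genes in all. With so many genes near the threshold, the scaling between libraries mattered: rescaled FPKM gave 22 calls (15 higher and 7 lower) by the median of ratios and 82 calls (72 higher and 10 lower) by the upper quartile, which moved the median of all genes to 0.13. None of the 7 was called under either, and under upper-quartile scaling FTL was no longer lower at an unadjusted p under 0.05.

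A ratio of 2 genes within a library does not depend on scaling between libraries. TFRC amounted to 5.71% of FTH1 by FPKM in HF01, 6.14% in HF02 and 4.33% in HF03, against 0.569% in LF01, 4.44% in LF02 and 0.426% in LF03. The HF pigs and LF02 lay together and LF01 and LF03 lay far below, so the groups overlapped. The mean log2 ratio was -4.23 ± 0.27 (SD, n = 3) in HF and -6.61 ± 1.84 (SD, n = 3) in LF, a difference of 2.38, and an exact two-sided permutation test gave p = 0.2. Without LF02 the difference was 3.44.

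FTH1 per FTL was 6.22 in HF01, 3.67 in HF02 and 4.10 in HF03, against 2.71 in LF01, 2.29 in LF02 and 1.44 in LF03. The groups did not overlap, and LF02 lay with the other LF pigs. The mean log2 ratio was 2.18 ± 0.40 (SD, n = 3) in HF and 1.05 ± 0.47 (SD, n = 3) in LF, a difference of 1.13, and the exact two-sided permutation test gave p = 0.1, the smallest possible. The doubt over the FTL level applies to each of these ratios, and whether it is equal over the pigs was not tested.

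**Figure D3:**
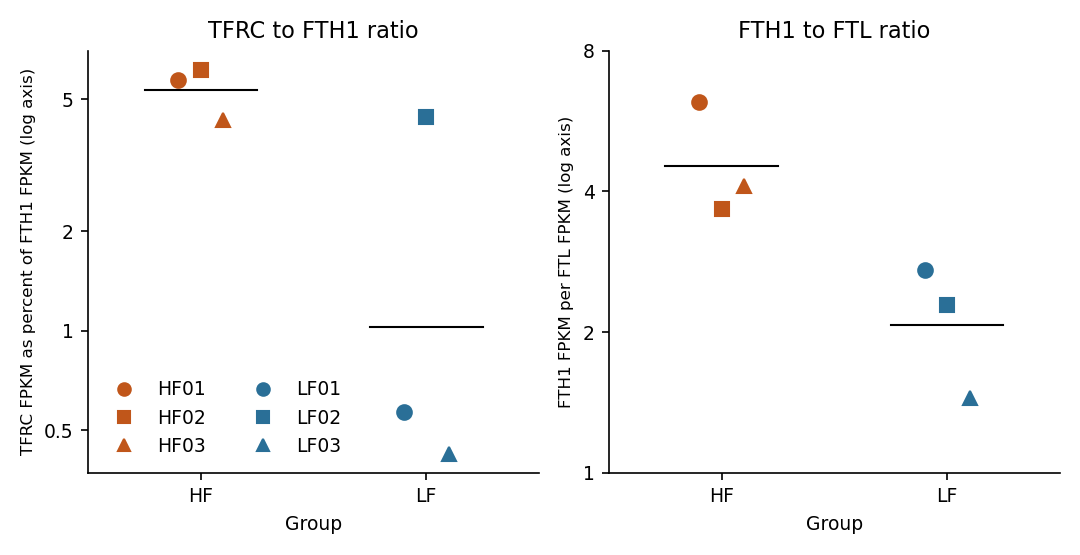
Ratio of TFRC to FTH1 in percent (left) and of FTH1 to FTL (right) in each pig, from FPKM on log axes, with the geometric mean of each group as a black line. LF02 at 4.44% sits with the HF pigs on the left and with the LF pigs on the right at 2.29.

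Around and including these members, 86 genes of iron, haem and oxygen biology in 11 lists were tested, and 0 were called, with 40 positive and 46 negative fold changes and a median of -0.08. At an unadjusted p under 0.05, 12 were higher and 18 lower in HF, where 11.0% of all genes tested were higher and 13.8% lower. The same shares stand behind each list count that follows. The lists overlap. In uptake and endosome, 4 of 10 were higher and 1 lower at that level, with a median of 0.18. The fourth higher gene beside TFRC, STEAP3 and SLC11A2 was LRP1 (log2 fold change 0.90, adjusted limma p of 0.148), an endocytic receptor, and the lower one was STEAP4 (-0.70, adjusted limma p of 0.150), another metal reductase.

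The gene nearest to a call in all lists was HJV, hemojuvelin, a co-receptor for bone morphogenetic proteins that in liver drives hepcidin and is also made in skeletal muscle. Its level was 80.0 FPKM in HF01, 89.7 FPKM in HF02 and 87.7 FPKM in HF03, against 301 FPKM in LF01, 241 FPKM in LF02 and 225 FPKM in LF03. The groups were far apart, with the highest HF pig below the lowest LF pig by more than the spread within either group. The LF mean was 2.98 times the HF mean, with a log2 fold change of -1.56, an SE of 0.20 and an adjusted limma p of 0.0505, and from 0.0299 to 0.214 over the alternatives. HJV passed 0.05 with a minimum of 5 FPKM, under both rescalings, with a robust variance and without LF02. NEO1, neogenin, which binds hemojuvelin, measured 4.41, 6.44 and 5.51 FPKM in HF against 2.97, 2.52 and 4.13 FPKM in LF, and its log2 fold change was 0.76 (adjusted limma p of 0.12). Of the other systemic and export genes, TF, LTF, HEPH, HAMP and TMPRSS6 were too low to test.

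Storage and chaperones held 2 lower genes of 5 at an unadjusted p under 0.05, FTL and NCOA4 (log2 fold change -0.55, adjusted limma p of 0.184), the receptor that sends ferritin for breakdown, and 0 higher, with a median of -0.27. Upper-quartile scaling left 0 of them lower at that level. PCBP1, an iron chaperone that loads ferritin, measured 257, 187 and 198 FPKM in HF against 260, 208 and 307 FPKM in LF, with a log2 fold change of -0.27 (adjusted limma p of 0.507). FBXL5, the iron sensor that marks IREB2 for breakdown, had a log2 fold change of -0.24 (adjusted limma p of 0.435).

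Among 8 tested genes whose messages carry an iron responsive element in mammals, 3 were higher and 1, FTL, lower at an unadjusted p under 0.05, with a median of 0.33. Beside TFRC and SLC11A2 the higher one was EPAS1, or HIF2A, a transcription factor of the oxygen response. EPAS1 was at 19.6 FPKM in HF01, 18.9 FPKM in HF02 and 27.9 FPKM in HF03, against 8.51 FPKM in LF01, 13.9 FPKM in LF02 and 6.31 FPKM in LF03. The groups did not overlap and LF02 was again the LF pig nearest to HF. The log2 fold change of EPAS1 was 1.25 with an adjusted limma p of 0.0899, and over the alternatives its adjusted p ran from 0.0470, without LF02, to 0.261. CDC14A, with a log2 fold change of -0.33, missed an unadjusted p of 0.05.

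**Figure D4:**
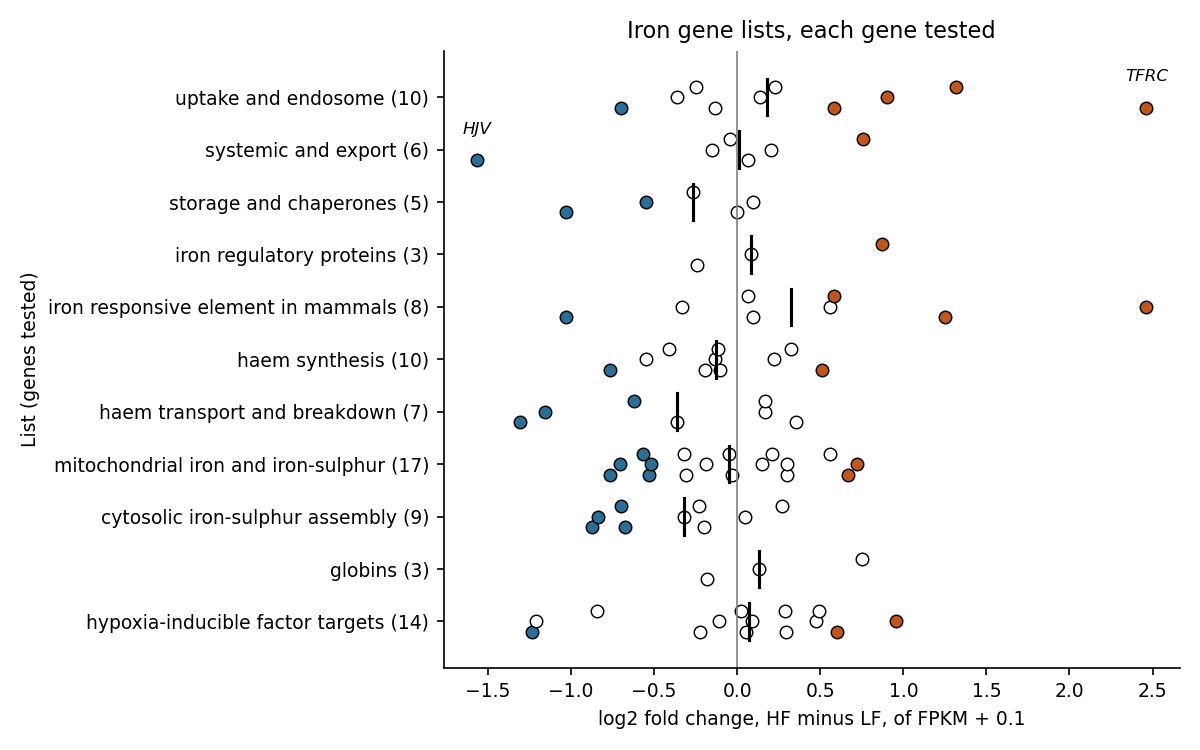
Log2 fold change, HF minus LF, of each tested gene in 11 lists, with list medians as black bars. Filled points have an unadjusted limma p under 0.05 (orange higher and blue lower in HF), and TFRC at 2.46 and HJV at -1.56 are the points farthest out.

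In haem synthesis 1 of 10 was higher and 1 lower at an unadjusted p under 0.05, close to the shares over all genes, with a median of -0.12 that became 0.04 under upper-quartile scaling. The 2 were ALAS1 (0.51, adjusted limma p of 0.150), which makes the first committed step in most tissues, and UROD (-0.77, adjusted limma p of 0.133), a later enzyme. ALAD, the enzyme after ALAS1, had a log2 fold change of -0.55 (adjusted limma p of 0.359). In haem transport and breakdown 3 of 7 were lower and 0 higher, with a median of -0.36, and 2 were lower at that level under upper-quartile scaling. HMOX2, the constitutive haem oxygenase, measured 15.5, 15.3 and 16.9 FPKM in HF against 37.0, 23.9 and 50.6 FPKM in LF. The groups of HMOX2 did not overlap, with a log2 fold change of -1.15 and an adjusted limma p of 0.0899, which ran from 0.0447, without LF02, to 0.259 over the alternatives. HMOX1, the inducible form (-1.31, adjusted limma p of 0.177), and BLVRA, which reduces the biliverdin they produce (-0.62, adjusted limma p of 0.129), were the other 2 lower genes.

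Iron-sulphur clusters are built in mitochondria and passed to proteins in the cytosol by further factors. Of 17 mitochondrial genes, 5 were lower and 2 higher at an unadjusted p under 0.05, with a median of -0.05. Under upper-quartile scaling the order turned over, with 2 lower, 3 higher and a median of 0.11. Lower ones were NFU1, a cluster carrier (-0.77, adjusted limma p of 0.0982), and HSCB, a co-chaperone (-0.71, adjusted limma p of 0.0992). SLC25A37, or mitoferrin-1, which carries iron into mitochondria, measured 5.83, 5.94 and 7.00 FPKM in HF against 4.31, 4.70 and 2.57 FPKM in LF. Its log2 fold change was 0.72 with an adjusted limma p of 0.135, while that of its paralogue SLC25A28 was -0.53 (adjusted limma p of 0.197). Of 9 cytosolic assembly genes, 4 were lower (3 under upper-quartile scaling) and 0 higher, among them CIAO2A (-0.84, adjusted limma p of 0.0899), NUBP2 (-0.87, adjusted limma p of 0.106) and CIAPIN1 (-0.70, adjusted limma p of 0.122). CIAO2A serves the maturation of ACO1 in human cells.

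Oxygen genes gave a mixed picture. HBB, the beta chain of haemoglobin, measured 115, 113 and 65.0 FPKM in HF against 26.1, 92.1 and 73.6 FPKM in LF, and the groups overlapped (log2 fold change 0.75, adjusted limma p of 0.347). CYGB, cytoglobin, had a log2 fold change of 0.13 (adjusted limma p of 0.792). Of 14 targets of the hypoxia-inducible factors, 2 were higher and 1 lower at an unadjusted p under 0.05, with a median of 0.07, and 4 were higher under upper-quartile scaling. The 3 were VEGFA, a vessel growth factor (0.96, adjusted limma p of 0.134), HK2, a hexokinase (0.60, adjusted limma p of 0.188), and, lower, BNIP3, a mitophagy receptor. BNIP3 measured 107, 136 and 136 FPKM in HF against 284, 235 and 389 FPKM in LF, with a log2 fold change of -1.24 and an adjusted limma p of 0.0808, which ran from 0.0485, without LF02, to 0.256 over the alternatives. Leaving out LF02 raised the calls over all genes to 226.

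Several cell types make TFRC. Of the red blood cell markers 7 of 8 were listed. Their summed level was 72.9 to 123 FPKM in HF and 31.1 to 98.4 FPKM in LF, nearly all of it HBB, and SLC4A1 and AHSP were at or near 0 in all pigs, with 0.0633 FPKM as their highest value. HF01 was highest in both TFRC and HBB, LF01 was lowest in HBB and had the next to lowest TFRC, and LF03, lowest in TFRC, had more HBB than HF03. All 9 macrophage markers were listed, and their sum was 10.5 to 38.1 FPKM in HF and 15.6 to 19.2 FPKM in LF. All 7 endothelial markers were listed, with sums of 71.3 to 92.2 FPKM in HF and 43.8 to 79.0 FPKM in LF.

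Sums of 2 other marker lists separated the groups, though not in the order of TFRC within them. The 7 of 8 Schwann cell markers that were listed summed to 24.0 to 64.3 FPKM in HF and 16.6 to 20.4 FPKM in LF, and the 4 satellite cell markers to 18.0 to 25.4 FPKM in HF and 11.8 to 15.1 FPKM in LF, both without overlap. HF01, with the highest TFRC, had the lowest Schwann sum of the HF pigs, and LF02, with the highest TFRC of the LF pigs, had the lowest satellite cell sum of all. The 6 fibroblast markers summed to 257 to 656 FPKM in HF and 245 to 293 FPKM in LF, and these sums overlapped. All 6 had positive fold changes, with a median of 1.12. At an unadjusted limma p under 0.05, 4 of the 6 were higher in HF, beside 11.0% of all genes tested. COL3A1 measured 97.9, 263 and 199 FPKM in HF against 70.5, 76.3 and 71.1 FPKM in LF, while DCN overlapped. At the same unadjusted p, 3 of 5 tested Schwann cell markers were higher and 0 lower, with a median log2 fold change of 1.25. Of the 4 satellite cell markers 2 were higher and 0 lower, with a median of 0.53. All 7 tested endothelial and all 7 tested macrophage markers had positive fold changes, with 0 of them at that level. The highest Schwann sum was in HF03, which also had the highest STEAP3, SLC11A2 and ACO1. HF03 had the highest macrophage, endothelial and slow fibre sums as well (38.1, 92.2 and 11804 FPKM). Slow fibre markers summed to 1407 to 11804 FPKM in HF and 2021 to 8556 FPKM in LF, and fast fibre markers to 13614 to 22186 FPKM in HF and 19143 to 29932 FPKM in LF. Adipocyte markers, all 6 listed, summed to 80.0 to 203 FPKM in HF and 91.5 to 194 FPKM in LF, most of it FABP4. Of the 5 adipocyte markers tested, 4 had positive fold changes, with a median of 0.83. ADIPOQ, the adipocyte hormone adiponectin, measured 2.69, 34.7 and 24.1 FPKM in HF against 11.6, 8.98 and 3.83 FPKM in LF, so HF02 and HF03 were above every LF pig and HF01 below all of them. LIPE, hormone-sensitive lipase, ran the other way, with 2.93, 8.32 and 7.86 FPKM in HF against 63.4, 5.43 and 38.0 FPKM in LF. The part of these cells in the TFRC difference was not tested.

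A number of genes varied over the pigs much as TFRC did, though not always in the same order within HF. Over the 6 pigs, 202 of 9395 genes had a Pearson r with TFRC above 0.9 on log2(FPKM + 0.1), a description in which the group difference itself raises r. The 5 highest were PLA2G12A (r = 0.992), a secreted phospholipase, BCL9 (0.989), a cofactor of beta-catenin, SRL (0.989), the calcium-binding sarcalumenin of the sarcoplasmic reticulum, TNK2 (0.988), a non-receptor tyrosine kinase, and THY1 (0.988), a surface glycoprotein. Each had LF02 as its highest LF pig and LF03 as its lowest, with smaller steps than TFRC. SRL, the most abundant of them, measured 154, 134 and 160 FPKM in HF against 79.2, 128 and 73.6 FPKM in LF. Its log2 fold change was 0.71 (adjusted limma p of 0.139), and that of THY1 was 0.998 (adjusted limma p of 0.0882).

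**Figure D5:**
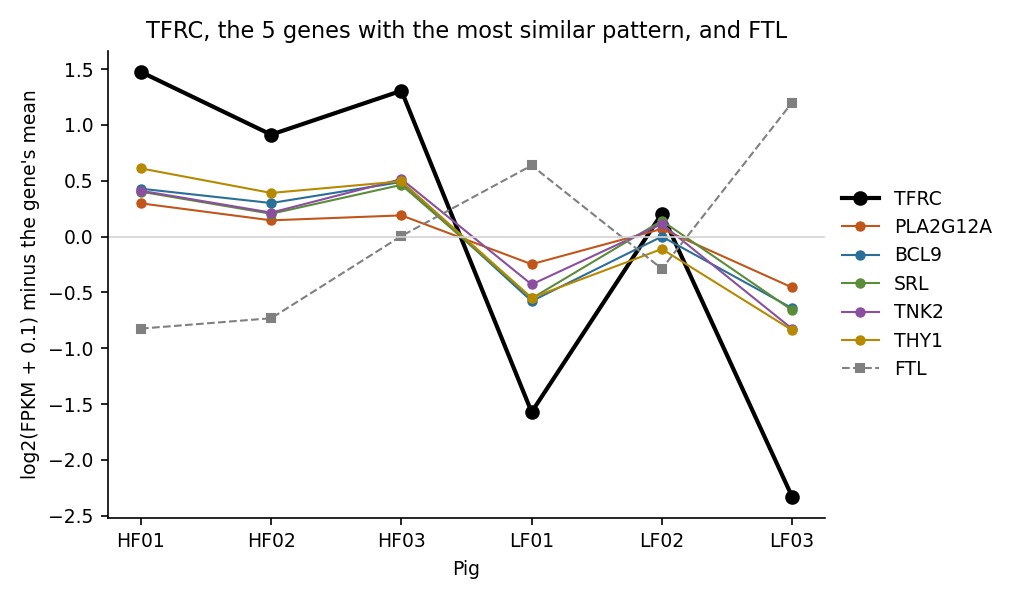
Level of TFRC, of the 5 genes whose pattern over the 6 pigs was most like it, and of FTL, each as log2(FPKM + 0.1) minus the gene's own mean. LF02 lies between the HF pigs and the other LF pigs in TFRC, whose 6 values span 14.2-fold, and FTL runs the opposite way in LF01 and LF03.

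TNK2 is also the next tested gene after TFRC on chromosome 13, from 134082455 to 134124826, 81608 bases beyond the end of the TFRC model. TNK2 measured 10.3, 9.02 and 11.13 FPKM in HF against 5.74, 8.39 and 4.33 FPKM in LF, with a log2 fold change of 0.76 and an adjusted limma p of 0.130. The neighbourhood was looked at after these values were seen. Within 500 kb on either side, 16 other genes were tested, of which 3 were higher (UBXN7, TNK2 and LRCH3), 1 was lower (WDR53) at an unadjusted p under 0.05 and 0 were called, beside 11.0% higher and 13.8% lower over all genes. Leaving out TNK2, which was picked for its high r, the r of the other neighbours with TFRC ran from -0.85 to 0.75.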

How the data were processed

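The authors sequenced poly(A) RNA libraries as paired reads, cleaned them with fastp, aligned them with HISAT2 to Sscrofa11.1 and deposited FPKM per pig made with cufflinks. The authors also deposited a signal column, the mean over the 6 pigs of HTSeq counts scaled by DESeq2, used here only as a measure of depth. The log2 fold changes, standard errors, statistics and p-values of the authors' own comparison were not used. Counts and depth per pig were not used here, so no counting interval is given.

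Columns were mapped to pigs by name (0 FPKM columns unmapped). Blank symbols, and 24 turned into dates, were filled for 1111 genes from a gene name table and for 403 from RefSeq positions in Sscrofa11.1 with 80% reciprocal overlap. HF and LF were compared with limma 3.58.1 (R 4.3.3) on log2(FPKM + 0.1), two-sided, with eBayes and a mean trend, over the 11136 genes of at least 0.5 FPKM on average. Ratios were compared by exact permutation. The scripts were tested on simulated data.

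The members and lists were chosen with earlier results of these data known. Named were all members, the up to 3 genes of each list with the smallest p at a mean of at least 1 FPKM, and the 5 genes most like TFRC. LRP1, STEAP4, CDC14A, SLC25A28 and the neighbours of TFRC were named after their values were seen. Some items are not reported here. Alternatives changed the pseudocount, filter, scaling, variance model, block, threshold and pigs.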

Additional observations from a re-analysis of the deposited data

How the results depend on the processing

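The count of 8 genes called depended on the processing: 1 without a filter on low values, 22 with median-of-ratios scaling, 82 with upper-quartile scaling, 14 with robust eBayes, 2 without a trend, 704 at an adjusted p under 0.10, and from 1 to 226 when a pig was left out, with the 226 without LF02. Members called were 0, except 2 (TFRC and ACO1) at an adjusted p under 0.10 and 0 to 1 when a pig was left out, TFRC alone without LF02. Of the genes in the lists 0 were called, but HJV alone (1 gene) with a minimum of 5 FPKM, with either scaling and with robust eBayes, 9 at an adjusted p under 0.10, and from 0 to 5 when a pig was left out, with TFRC, HJV, EPAS1, HMOX2 and BNIP3 called without LF02. These alternatives for the lists were added after seeing the data.

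TFRC, STEAP3, SLC11A2, ACO1 and FTL kept the sign of their fold change under every alternative run. Signs reversed for FTH1 without HF03 (-0.09) and without LF02 (-0.24), for SLC40A1 without HF03 (-0.25) and without LF02 (-0.15), and for IREB2 without HF02 (-0.05) and without LF02 (-0.13) and the cause was not tested. With a pig left out, their fold changes ran from -0.24 to 0.36 for FTH1, from -0.25 to 0.30 for SLC40A1 and from -0.13 to 0.25 for IREB2. The TFRC to FTH1 difference ran from 1.75 to 3.44 and the FTH1 to FTL difference from 0.867 to 1.32 with a pig left out.

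Pigs with the same number showed little shared deviation from their group means (r = -0.04, 0.09 and 0.02 for 01, 02 and 03). Deviations from a mean of 3 pigs are tied to one another, so this check cannot exclude a pairing. The study speaks of pairs of pigs with divergent traits, and the labels name no pairs. With the replicate number as a block 14 genes and 0 members were called, and the exact p of both ratios was 0.25, the smallest possible. With 3 pigs a group the intervals of FTH1, IREB2 and SLC40A1 include changes in either direction.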

Other observations

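ALAS2, the erythroid form of the first enzyme of haem synthesis, was below the filter of 0.5 FPKM on average. In HF it measured 0.848, 0.469 and 0.433 FPKM, and in LF 0.0190, 0.645 and 0.492 FPKM, in the order 01, 02, 03. LF01, the pig with the least ALAS2, also had the least HBB (26.1 FPKM).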
